A study of Mus musculus with 6 samples.

Results

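The 10 genes described here encode transcription factors of the AP-1 and Egr families that are known as immediate early genes, namely Fos, Fosb, Fosl1, Fosl2, Jun, Junb, Jund, Atf3, Egr1 and Egr2. They were chosen by name, by no rule on measured values but with earlier results of these data known. The choice was made out of 19938 genes read by a probe set that names a single gene. Each of the 10 had 1 such probe set. RNA was measured on 1 Affymetrix whole-transcript array per sample in 6 samples of HM1, an embryonic stem (ES) cell line of the mouse. In the control group (3 arrays) the cells carried the empty plasmid pCAGIP.puro, and in the Prmt6 overexpression group (3 arrays) they carried mouse Prmt6, a nuclear arginine methyltransferase that modifies histones, cloned into that plasmid. Cells of both groups grew in medium with 15% serum and the cytokine LIF at 1000 U/ml, were transfected by lipofection, and were selected for 3 days with puromycin at 1 ug/ml. The RNA came from the selected population as a whole, and no earlier time after transfection was analysed here. The titles number the replicates 1 to 3 but do not say whether they were separate cultures, so the spread behind each p-value is that of these samples and may be technical.

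AP-1 is a dimer of leucine zipper proteins. Members of the Fos family (Fos, Fosb, Fosl1, Fosl2) bind DNA with a partner, typically from the Jun family (Jun, Junb, Jund). Jun proteins can also pair among themselves, and Atf3 pairs with itself or with Jun proteins. Genes of this kind are switched on within minutes by growth factors, serum or stress without new protein synthesis, mostly through the ERK, JNK and p38 kinases and serum response factor, and the transcripts of Fos and Egr1 decay quickly again, while Fosl1 and Fosl2 are known to follow later and to last longer. Egr1 and Egr2 are zinc finger factors that bind GC-rich sites and respond to the same signals. In ES cells, Jun is known as a factor that opposes the pluripotent state when its level is raised.

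The values are log2 signals. Medians of the control arrays were 5.60 to 5.62 and those of the overexpression arrays 5.54 to 5.59. No detection calls were used, so signal and background cannot be told apart at low values, and precision is limited by having 3 arrays per group. Prmt6 itself was at 6.84, 6.58 and 7.12 in control and at 7.32, 7.40 and 7.33 in overexpression, a log2 difference of 0.50 ± 0.13 (SE, n = 3 per group, limma adjusted p = 0.0406). Its call ended without every array but control replicate 3 (adjusted p up to 0.119). Markers of undifferentiated ES cells, such as Pou5f1 (from 11.06 to 11.41 over the 6 arrays), were high in both groups, with 0 of 12 higher, 4 lower and 8 not past the test, where 7.05% of all genes were called higher and 3.25% lower (limma, as defined below). The 4 falls were those of Nanog (-0.34 ± 0.068), Sox2 (-0.29 ± 0.076), Tdgf1 (-0.35 ± 0.072) and Fbxo15 (-0.77 ± 0.076). They became 1 without control replicate 1, 2 or 3 and 2 without overexpression replicate 2. The summed linear signal of the 12 ran from 22505 to 23495 in control and from 21930 to 22025 in overexpression. Of 15 measured fibroblast markers, 7 rose and 0 fell, beside those same shares. The 7 rises became 2 without control replicate 1, 3 without control replicate 3 or overexpression replicate 3, and 4 without control replicate 2 or overexpression replicate 2. Their summed linear signal ran from 605 to 639 in control and from 863 to 945 in overexpression. Of 12 markers of extraembryonic endoderm and trophoblast, 4 rose and 0 fell beside the same shares, with sums from 651 to 677 in control and from 789 to 820 in overexpression. In such bulk samples, more cells of a type and more RNA per cell cannot be told apart, and the part of these marker changes in the results below was not tested.

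The comparison asked which of these factors change in RNA level when ES cells carry the Prmt6 plasmid in place of the empty one. Of the 10 genes, Fosl2, Atf3, Jun and Jund rose with the Prmt6 plasmid, by 1.91-fold, 1.89-fold, 1.66-fold and 1.28-fold (n = 3 arrays per group). Fosl2 is a Fos family member without the strong activation domain of Fos, Atf3 is a stress-induced factor that can repress or activate, and Jun and Jund are AP-1 partners. The classical serum-response genes Fos, Fosb, Egr1 and Egr2 did not pass, and neither did Fosl1 and Junb. The 4 rises stood against 7.05% of all 19938 genes called higher at the same threshold (limma, adjusted p under 0.05 by the Benjamini-Hochberg method over all genes), and the 0 falls against 3.25% called lower. At an unadjusted p under 0.05 the counts were again 4 higher and 0 lower, where 14.1% of all genes were higher and 10.4% lower. The median log2 difference over the 10 genes was 0.15, beside 0 over all genes.

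**Figure D1:**
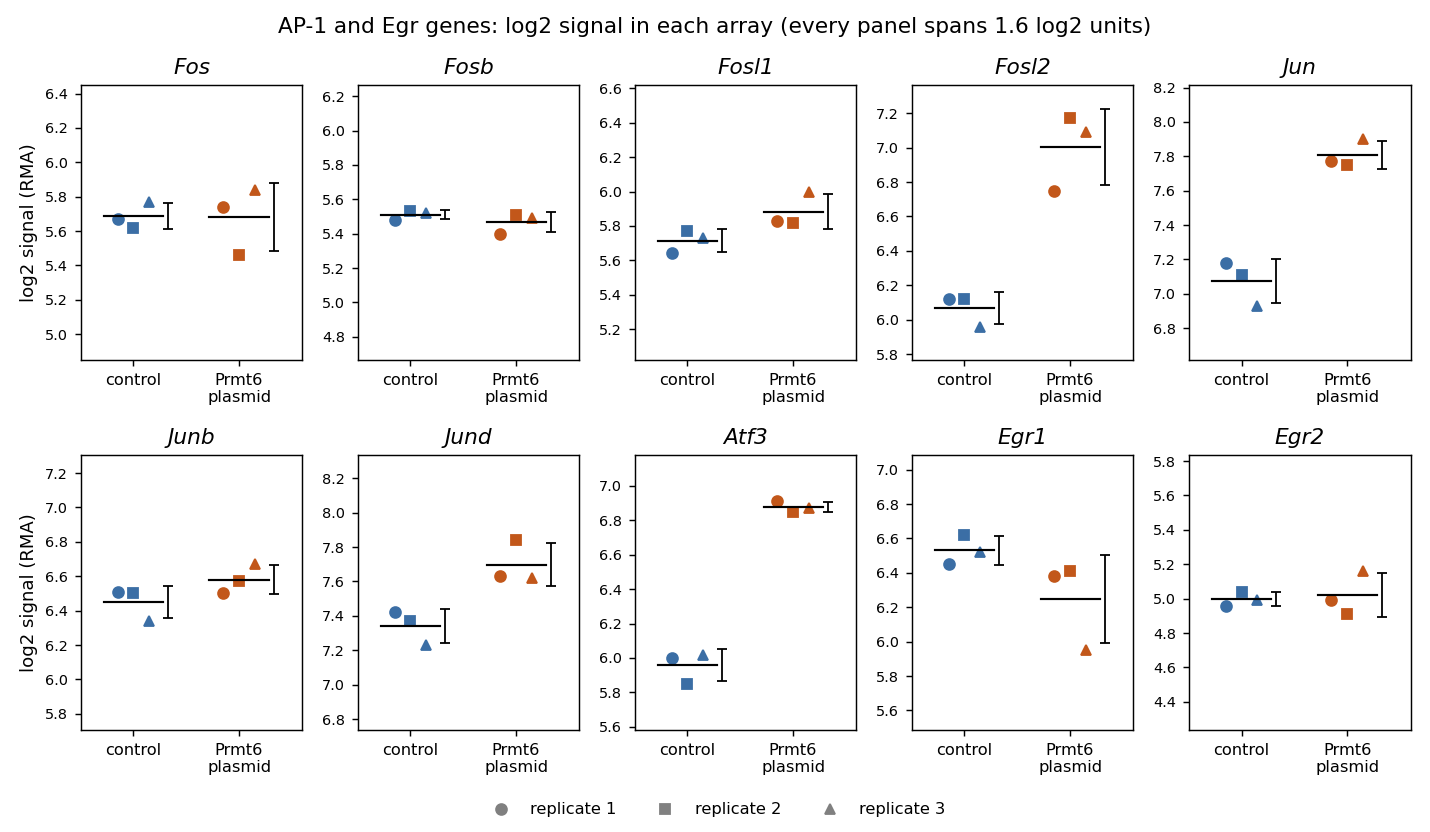
Log2 signal of the 10 genes in each array, 1 panel per gene, for the 3 control arrays (blue) and the 3 overexpression arrays (orange); marker shapes give the replicate number, horizontal lines the group means and bars 1 SD, and every panel spans the same range. Fosl2, Jun and Atf3 stand clearly apart between the groups, Jund by less, and Fos, Fosb, Junb and Egr2 overlap. The groups of Fosl1 (higher) and Egr1 (lower) do not overlap either, though neither gene passed. Over all genes, 17% did not overlap and were higher, and 12.7% did not overlap and were lower.

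The sequences before the annotated starts of the 3 genes with the largest rises, Fosl2, Jun and Atf3, are shown with that of Fos, whose groups overlapped, so that the binding sites AP-1 and its relatives could use there can be read. Of the 10 genes, 8 had a promoter entry in the RefSeq table (GRCm38.p6), and Fosl1 and Egr1 were not among them. Each run covers the 250 bases before the start, 5′ to 3′ on the gene's strand, and capitals mark matches on either strand to the motifs searched.

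Fosl2 (chr5:32136222-32136471, plus strand): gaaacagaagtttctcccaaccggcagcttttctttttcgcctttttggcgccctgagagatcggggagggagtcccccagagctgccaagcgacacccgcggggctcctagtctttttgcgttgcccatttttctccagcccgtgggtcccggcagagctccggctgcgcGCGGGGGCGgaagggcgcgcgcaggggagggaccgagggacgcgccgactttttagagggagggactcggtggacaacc
Jun (chr4:95052223-95052472, minus strand): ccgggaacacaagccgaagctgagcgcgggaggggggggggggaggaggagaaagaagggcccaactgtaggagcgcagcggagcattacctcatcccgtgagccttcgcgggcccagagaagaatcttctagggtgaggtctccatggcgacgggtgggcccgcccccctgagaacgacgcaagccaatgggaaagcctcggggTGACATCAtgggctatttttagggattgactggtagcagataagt
Atf3 (chr1:191183334-191183583, minus strand): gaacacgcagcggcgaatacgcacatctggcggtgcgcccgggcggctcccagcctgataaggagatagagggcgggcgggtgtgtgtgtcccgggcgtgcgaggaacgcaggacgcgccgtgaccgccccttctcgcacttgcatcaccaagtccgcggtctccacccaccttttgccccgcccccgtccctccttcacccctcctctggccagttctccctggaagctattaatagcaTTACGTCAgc
Fos (chr12:85473640-85473889, plus strand): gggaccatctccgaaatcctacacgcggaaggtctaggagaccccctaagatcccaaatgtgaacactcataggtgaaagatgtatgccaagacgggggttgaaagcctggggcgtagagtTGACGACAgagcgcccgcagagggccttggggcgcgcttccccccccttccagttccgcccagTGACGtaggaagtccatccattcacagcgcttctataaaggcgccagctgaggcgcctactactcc

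The motifs were the AP-1 site TGANTCA, the cyclic AMP response element TGACGTCA, the same element with at most 1 changed base, its shorter core TGACG, the Egr site GCGNGGGCG, and the CArG box bound by serum response factor. The element with at most 1 changed base includes the exact one, and its matches can overlap the core. Jun held TGACATCA, starting 45 bases before its start, and Atf3 held TTACGTCA, starting 10 bases before. Fos held TGACGACA, starting 129 bases before, and a further TGACG 66 bases before. Matches with at most 1 changed base stood in 10.6% of 32851 promoter windows of the same length, and the core in 17.8%. Fosl2 held none of these but had a GCGGGGGCG starting 79 bases before its start, a motif of 4.70% of windows. Fosb also had an Egr site match, as well as a TGACG, and Junb had a TGACG. Jund had no match to any of the motifs in its window. Egr2, with 5 annotated starts whose windows partly overlap, had CArG boxes before 4 of them, a motif of 1.47% of windows. Before 3 of its starts, whose windows overlap, Egr2 also held TGACGGCA and CGACGTCA, both matches with at most 1 changed base that contain the core. The exact element (1.55% of windows) and TGANTCA (6.75%) were in none of the 8 genes' windows. These matches describe letters in a window, and they were found both in genes that rose and in genes that did not pass.

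In the Fos family, Fosl2 rose and the other members did not pass. Fosl2 was at 6.12, 6.12 and 5.96 in control and at 6.75, 7.17 and 7.09 in overexpression. The groups were far apart, and the overexpression arrays spread more widely (SD 0.223 against 0.0924), with replicate 1 the lowest of them. The log2 difference of 0.94 ± 0.12 (SE, adjusted p = 0.00143, limma) was the largest of the 10 genes and ranked 234 among the 1405 rises over all genes. Without overexpression replicate 1 it was 1.06, and it passed under each of the 17 alternative settings.

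Fosl1, which like Fosl2 lacks a strong activation domain and is induced late, was at 5.64, 5.77 and 5.73 in control and at 5.83, 5.82 and 6.00 in overexpression. All its overexpression arrays lay above all control arrays, as for 17% of all genes, by a margin of less than the spread within a group. Its difference of 0.17 ± 0.081 did not pass (adjusted p = 0.242, limma), with a 95% interval from -0.014 to 0.35. Fos, the founding member of the family, was at 5.67, 5.62 and 5.77 in control and at 5.74, 5.46 and 5.84 in overexpression. Both the lowest and the highest value came from overexpression arrays, replicates 2 and 3. Its difference was -0.0067 ± 0.11 (adjusted p = 0.980, limma), at 0.04 with arrays centred on their medians, and its interval ran from -0.25 to 0.24. Fosb, a close relative of Fos that accumulates under lasting stimulation in neurons, was at 5.48, 5.53 and 5.52 in control and at 5.40, 5.51 and 5.49 in overexpression, with overlapping groups. Its difference was -0.043 ± 0.069 (adjusted p = 0.768, limma), at 0.0033 with arrays centred on their medians, and its interval from -0.20 to 0.12 lay within a narrower range than that of any other of the 10 genes.

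In the Jun family, Jun and Jund rose and Junb did not pass. Jun, the strongest activator of the family and its own target in many cells, was at 7.18, 7.11 and 6.93 in control and at 7.77, 7.75 and 7.90 in overexpression. The lowest overexpression array lay well above the highest control array. Its log2 difference was 0.73 ± 0.089 (adjusted p = 0.00126, limma), it passed under each of the 17 alternatives, and it ranked 359 among all rises.

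Jund, which is expressed in most tissues without stimulation and often restrains growth, was at 7.42, 7.37 and 7.23 in control and at 7.63, 7.84 and 7.62 in overexpression. The groups did not overlap, but the distance between them was about that between the control arrays. Its log2 difference was 0.36 ± 0.090 (adjusted p = 0.0413, limma). The call ended when any 1 of the 6 arrays was left out (adjusted p from 0.0521 to 0.150), the difference then lying between 0.29 and 0.40, so that 3 of the 10 genes were called in each of those fits. Junb, which can oppose Jun at many targets, was at 6.51, 6.50 and 6.34 in control and at 6.50, 6.57 and 6.67 in overexpression. The groups overlapped, and the difference of 0.13 ± 0.082 did not pass (adjusted p = 0.387, limma), with an interval from -0.058 to 0.32.

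Atf3, an ATF family factor induced by many kinds of stress and by serum, was at 6.00, 5.85 and 6.02 in control and at 6.91, 6.85 and 6.87 in overexpression. The 3 overexpression arrays lay close together and well above all control arrays. Its log2 difference was 0.92 ± 0.075, with the smallest adjusted p of the 10 genes (0.000134, limma), and it passed under each of the 17 alternatives, from 0.87 to 0.97. Batf3, a related zipper factor of immune cells and a near neighbour of Atf3 with 1 protein-coding gene between them, was at 5.73, 5.66 and 5.69 in control and at 5.54, 5.57 and 5.66 in overexpression and did not pass (-0.10 ± 0.071, adjusted p = 0.427, limma). Jdp2, a repressor partner of Jun, and Batf are the next protein-coding genes beside Fos. Jdp2 was at 0.36 ± 0.11 (adjusted p = 0.0883) and Batf at -0.05 ± 0.095 (adjusted p = 0.808), and neither passed. Of 10 measured heat shock and handling stress genes, 2 rose, 0 fell and 8 did not pass, beside 7.05% of all genes higher and 3.25% lower, with sums of linear signal from 32177 to 33275 in control and from 31427 to 33329 in overexpression. The risen ones were the small heat shock protein gene Hspb1 (0.58 ± 0.076) and the chaperone regulator Bag3 (0.62 ± 0.098), while the classical heat shock gene Hspa1a was at 0.093 ± 0.092.

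Egr1, the family's main factor in growth signalling, was at 6.45, 6.62 and 6.52 in control and at 6.38, 6.41 and 5.95 in overexpression. All its overexpression arrays lay below all control arrays, as for 12.7% of all genes, and replicate 3 lay far below the other two. Its log2 difference of -0.28 ± 0.13 was the lowest of the 10 genes and did not pass (adjusted p = 0.212, limma), with an interval from -0.57 to 0.0045. Without overexpression replicate 3 it was -0.14 (adjusted p = 0.365). Egr2, a factor of hindbrain and Schwann cell development, was at 4.96, 5.04 and 4.99 in control and at 4.99, 4.91 and 5.16 in overexpression. These groups overlapped, and the difference was 0.023 ± 0.084 (adjusted p = 0.905, limma), with an interval from -0.17 to 0.21 and a value of -0.022 with array weights. The other family members Egr3 and Egr4 did not pass either, at -0.01 ± 0.074 and -0.12 ± 0.12. Nor did the Egr corepressors Nab1 and Nab2, at 0.34 ± 0.10 and 0.25 ± 0.081 (adjusted p = 0.0746 and 0.0911).

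**Figure D2:**
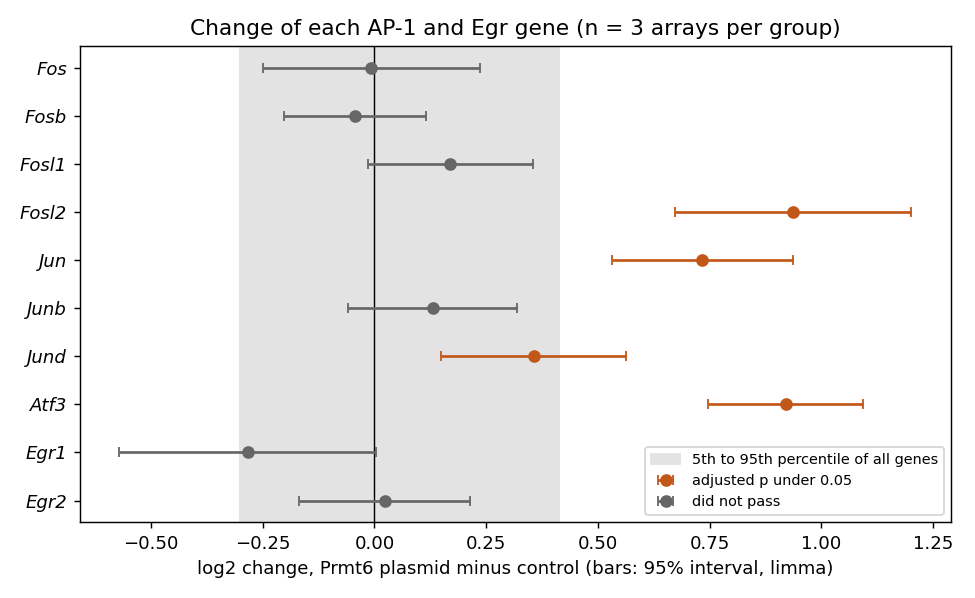
Log2 difference of each gene, overexpression minus control, as points with 95% intervals from limma (n = 3 arrays per group); the grey band spans the 5th to 95th percentile of all genes, from -0.30 to 0.41. The intervals of Fosl2, Jun and Atf3 lie wholly above the band. The point of Jund (0.36) lies inside the band and its interval extends above it, and the intervals of the other 6 genes include 0.

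Among the 6 genes that did not pass, intervals reached no higher than 0.35 (Fosl1) and no lower than -0.57 (Egr1), so that differences as large as those of Fosl2, Atf3 or Jun lay outside all of them. In brightness, 4 of the 10 genes (Fos, Fosb, Fosl1 and Egr2) had means under the median of all gene means, 5.87, and 0 were under the 30th percentile, 4.85. None of those 4 was called, and Egr1 and Junb did not pass although their means were above the median. What part the low signal had in this was not tested.

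**Figure D3:**
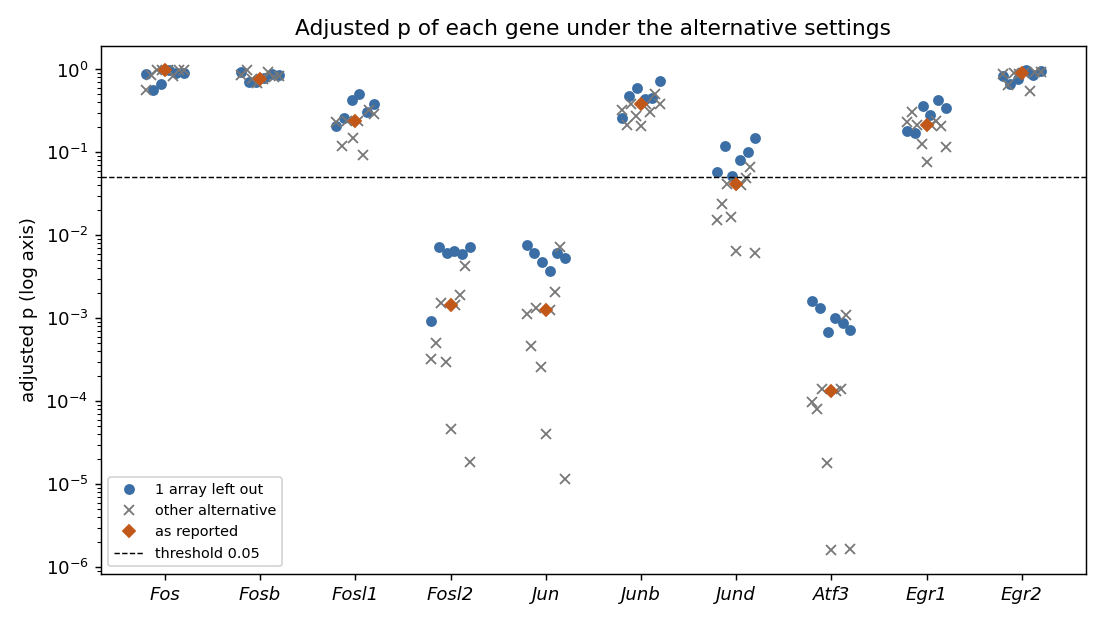
Adjusted p of the 10 genes on a log axis, as reported (orange diamonds), with 1 array left out (blue circles) and under the other alternative fits (grey crosses), with the threshold of 0.05 as a dashed line. All points of Fosl2, Jun and Atf3 lie below the line, those of Jund lie on both sides, and those of the other 6 genes lie above it.

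The profile most like that of Fosl2, the gene with the largest difference, was sought over the 6 arrays as the smallest root mean square distance between log2 values, each gene centred on its control mean. The nearest were Tnfrsf23, a decoy receptor of the TNF receptor family (distance 0.11 on the log2 scale), Dusp9, a phosphatase of ERK (0.12), and Pdlim7, a LIM protein of the actin cytoskeleton (0.13). Tnfrsf23 was at 4.29, 4.43 and 4.33 in control and at 5.01, 5.32 and 5.19 in overexpression. Like Fosl2, it was lowest in overexpression replicate 1 and highest in replicate 2 of that group, a likeness by which it was selected. Its mean of 4.76 was under the 30th percentile of all gene means, 4.85, where signal and background cannot be told apart. In overexpression, Dusp9 was at 9.21, 9.34 and 9.34, and Pdlim7 was at 9.10, 9.14 and 9.18, highest in replicate 3.

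Around the 10 genes, the list of other immediate early genes held many rises, beside 7.05% of all genes called higher and 3.25% lower. Of 46 measured, 22 rose, 0 fell and 24 did not pass (limma). At an unadjusted p under 0.05, 29 were higher and 2 lower, beside 14.1% and 10.4% of all genes. The list had a median log2 difference of 0.26. Ptgs2, which makes prostaglandin precursors, had the largest rise, from 5.41, 5.44 and 5.44 to 8.70, 8.54 and 8.21. Dusp4, a phosphatase that switches off ERK in the nucleus, was at 7.21, 7.38 and 7.28 in control and at 8.80, 8.74 and 8.79 in overexpression (1.49 ± 0.074). Phlda1, induced by growth factors, rose by 1.47 ± 0.077, and the matrix signalling protein gene Ccn1 by 1.35 ± 0.081. None of these values overlapped between the groups. Some early genes did not pass, among them Ier2 (0.073 ± 0.067), which is often induced together with Fos and Egr1, and the nuclear receptor gene Nr4a1 (0.24 ± 0.075, adjusted p = 0.0827).

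Of 29 genes reported in other systems as targets of AP-1 or Egr1, 26 were measured, of which 13 rose, 1 fell and 12 did not pass (median 0.39, limma), beside 7.05% of all genes higher and 3.25% lower, so that the single fall is near the share of all genes. The largest rises were those of the keratin gene Krt18 (3.22 ± 0.070), the coagulation starter F3 (2.08 ± 0.078), the receptor tyrosine kinase gene Axl (1.96 ± 0.10) and Hbegf, a ligand of the EGF receptor (1.63 ± 0.083). F3 was at 5.88, 5.89 and 6.02 in control and at 8.09, 8.01 and 7.94 in overexpression. The 1 fall was that of the adhesion molecule gene Icam1 (-0.36 ± 0.072), whose call ended without control replicate 1 (adjusted p = 0.0575) or 2 (0.0718) or overexpression replicate 2 (0.0574). Without overexpression replicate 1, 2 targets were called lower. Ccnd1, a cell cycle gene named as a target of AP-1, was at -0.25 ± 0.080 (adjusted p = 0.0919) without passing. These genes have many other regulators, and the binding of AP-1 or Egr1 was not measured. In the same arrays the fibroblast collagen gene Col1a1 went from 6.50, 6.67 and 6.19 to 7.79, 7.73 and 7.85. That was the largest rise of the 15 measured fibroblast markers. Of these, 7 rose and 8 did not pass, 4 of them with a difference below 0, beside 7.05% of all genes called higher.

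Of 25 other zipper factors that can pair with AP-1 proteins or share their sites, 5 rose, 1 fell and 19 did not pass (median 0.043, limma), beside 7.05% of all genes higher and 3.25% lower, so that the single fall is near the share of all genes. The small Maf protein genes Mafk and Maff rose by 0.77 ± 0.088 and 0.40 ± 0.089, the repressor gene Nfil3 by 0.75 ± 0.092 and Bach2, a repressor known from B cells, by 0.47 ± 0.090. The fall was that of Atf2, a Jun partner activated by JNK and p38 (-0.38 ± 0.072, adjusted p = 0.0122). The Maff call ended without control replicate 1 (adjusted p = 0.0908), 2 (0.0888) or 3 (0.0539) or overexpression replicate 2 (0.0507), and that of Bach2 without control replicate 3 (0.0521). Rises numbered 3 without control replicate 1 or overexpression replicate 2 and 2 without control replicate 3, which is closer to the share of all genes, and the fall was not called without control replicate 1 (adjusted p = 0.0594) or 3 (0.0537).

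Of 20 measured upstream kinases, serum response factor and its cofactors, 1 rose, 0 fell and 19 did not pass (median 0.018, limma), a share of rises near the 7.05% of all genes. At an unadjusted p under 0.05, 4 were higher and 2 lower, beside 14.1% and 10.4% of all genes. Without overexpression replicate 3, 2 rises were called. The rise was that of Elk3, an ETS factor that binds with serum response factor, from 5.77, 5.95 and 5.93 to 7.02, 6.90 and 6.80 (1.02 ± 0.087). Serum response factor itself, Srf, was at 0.11 ± 0.085. Array signals give RNA levels, and the activity of these kinases was not measured.

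**Figure D4:**
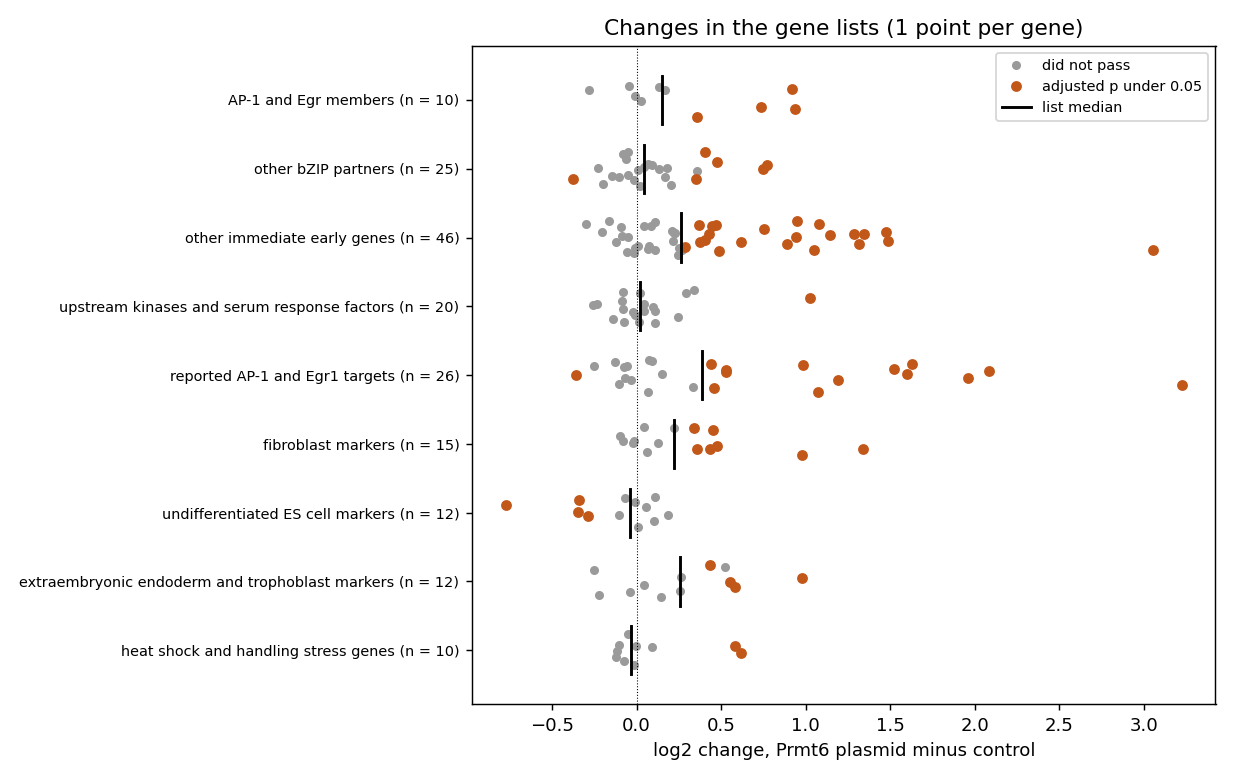
Log2 difference, overexpression minus control, of each measured gene in the 10-gene group, 4 lists of related genes and 4 marker lists; orange points passed the threshold, grey points did not, and black bars are list medians (vertical jitter has no meaning). The early-gene and target lists hold many orange points to the right, with Ptgs2 and Krt18 past 3, whereas upstream factors cluster near 0 apart from Elk3.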

How the data were processed

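Per the submitters' processing notes, the deposited log2 signals were made by RMA (robust multi-array average: background correction, equalized array distributions, 1 value per probe set); its version and settings are not stated in the labels. This processing hides a shift common to most genes. The platform annotation of 2016 named 1 gene for 21789 of 35556 probe sets and several for 1621, leaving 12146 unnamed. Symbols were checked by gene identifier against GRCm38.p6. Where several single-symbol probe sets named a gene, that of the highest mean was used. Limma 3.58.1 in R 4.3.3 (lmFit, eBayes) compared the 3 overexpression with the 3 control arrays over all 19938 genes, two-sided, without covariates or filter, with Benjamini-Hochberg adjustment and a threshold of 0.05. Differences are overexpression minus control, ± SE. On simulated data of the same 19938 genes and groups, the fit recovered 5.60% of log2 changes of 0.3 and 49.2% of 0.5. For changes of 1 and 2 the shares were 96.0% and 99.6%. All these shares depend on the number of changed genes and the spread set in the simulation. They describe the simulated data and cannot be read as recovery rates for the real arrays. Named genes were the 10 members, Prmt6, Col1a1, up to 4 called genes with the largest difference per related list, and the 3 profiles nearest to the member with the largest difference; others named were chosen after their values were seen. The members and lists were chosen with earlier results of these data known, so counts of the lists are descriptions. The alternatives tried were fits with a replicate block or without 1 array, filters on dim genes, centring, quantile normalization, other probe set rules, another variance prior, array weights and stricter thresholds. Figures used matplotlib 3.10.9 in Python 3.11.15.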

Additional observations from a re-analysis of the deposited data

How the results depend on the processing

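Calls of Fosl2, Jun and Atf3 held under all 17 alternatives. The Jund call ended in all 6 fits with 1 array left out, with the replicate block (adjusted p = 0.0676), at an adjusted p under 0.01 and with a minimum of 1.5-fold. The number of called AP-1 and Egr genes was 3 or 4 higher and 0 lower throughout. Signs turned for uncalled genes: Fos was at 0.04 with arrays centred on medians and 0.044 under quantile normalization, and lay between -0.087 and 0.10 with 1 array left out; Fosb was at 0.0033 and 0.012 under those scalings; Egr2 was at -0.022 with array weights and between -0.047 and 0.078 with 1 array left out. For 20 other named genes, 336 results under alternative fits or thresholds were compared, of which 309 kept the call, 27 lost it and 0 turned. Most of these genes were picked as the largest called differences of their lists, which favours kept calls. Other genes named in the text, such as Nanog, Nab1 and Srf, were not followed in this way.

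Same-numbered arrays did not deviate together (correlations of deviations -0.019, -0.016 and -0.12 over genes). Arrays with different numbers gave correlations from -0.10 to 0.11. With 3 arrays per group, such values cannot settle whether the numbers mark pairs. With the replicate block 1018 genes were called higher and 383 lower, 4 fibroblast markers higher, 1 ES cell marker lower and 0 target genes lower (Icam1, adjusted p = 0.0568).

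Over all genes, 1405 were higher and 647 lower. Higher genes numbered 765 at an adjusted p under 0.01, 532 at 1.5-fold and from 862 to 1232 with 1 array left out. Lower genes numbered 219, 134 and from 280 to 763 in those settings, 1098 with array weights, 990 and 1079 under the filters at the 30th percentile and the median, and 1115 with a trended and robust prior. Centring gave 1838 higher and 447 lower, or 80.4% higher against 68.5%. Medians of all genes moved by at most 0.047.

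With 1 array left out, list counts were 2 to 5 higher and 0 to 1 lower for other zipper factors, 1 to 2 higher for upstream factors, 2 to 6 higher for fibroblast markers, 1 to 3 lower for ES cell markers, 0 to 1 lower for other early genes and 0 to 2 lower for targets. At an adjusted p under 0.01 the other zipper factors counted 2 higher and 0 lower, targets 0 lower, fibroblast markers 2 higher and ES cell markers 1 lower. At 1.5-fold these counts were the same, with 14 early genes, 1 extraembryonic marker and 1 stress gene higher. With array weights, lower counts were 1 for early genes and 2 for targets, and 4 upstream factors were higher. Under the filter at the 30th percentile, 4 upstream factors and 7 extraembryonic markers were higher, and 1 early gene, 1 upstream factor, 2 targets and 1 extraembryonic marker lower. Under that at the median, 4 upstream factors and 4 fibroblast markers were higher, and 2 zipper factors, 2 early genes, 1 upstream factor, 2 targets and 1 extraembryonic marker lower. The trended and robust prior gave 4 upstream factors and 1 ES cell marker higher, and 2 zipper factors, 2 early genes, 2 targets and 1 extraembryonic marker lower. Centring gave 3 upstream factors and 7 extraembryonic markers higher, and quantile normalization gave 7 extraembryonic markers higher and 2 targets lower. The causes were not tested.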
